A study of Mus musculus with 32 samples.

Results

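The genes described here are 35 genes of macrophages, a chosen list that covers the growth factor and receptor macrophages depend on, surface and lysosomal proteins, complement C1q, immunoglobulin receptors and the markers of Kupffer cells. They are 35 of the 51510 genes to which the transcript abundances could be summed, and all 35 were found by symbol. Male C57BL/6J mice gave the RNA, from 4 organs: liver, heart, skeletal muscle and the heat-producing brown adipose tissue (BAT). The mice labelled Mut carry a knockout of Smim30, which encodes a small integral membrane protein, and the mice labelled WT are wild type. Each tissue of each genotype has 4 libraries, and the submitters describe 4 individual males per tissue, whose organs were frozen in liquid nitrogen right after sacrifice. Whether organs with the same number come from 1 mouse is not stated. The labels give no age and do not describe the allele.

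Macrophages are phagocytic cells that live in every organ, where they clear dead cells, iron and lipid. Their survival depends on the receptor CSF1R and its ligand CSF1, and their identity on the transcription factor PU.1, encoded by Spi1. In the liver they line the sinusoids as Kupffer cells, which are marked in mice by Clec4f. Kupffer cells also express the receptors Vsig4, Timd4 and Marco and the secreted protein Cd5l. In fat and other tissues loaded with lipid or debris, macrophages are known to express Trem2, Gpnmb and Lgals3.

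Values are TPM, a share of the transcripts of a library corrected for their length, summed over the transcripts of each gene, and the read depth behind them is unknown. Differences between genotypes are Mut minus WT on log2(TPM + 1), which makes the change of low genes smaller than the ratio of their means. They were tested with limma, with Benjamini-Hochberg adjustment over all genes of a tissue that averaged at least 1 TPM, and a gene is called where the adjusted p is under 0.05. Marker sums fitted the tissue labels: 5 hepatocyte genes summed to between 67149 and 89661 TPM in Mut liver and between 76222 and 90270 TPM in WT liver, against at most 1142 TPM in any library of the other tissues. Smim30 RNA was present in every library labelled Mut. It was at 17.8 to 27.4 TPM in Mut heart, against 32.7 to 37.6 TPM in WT heart, and at 24.3 to 27.3 TPM in Mut muscle, against 32.9 to 35.7 TPM in WT muscle, so Mut lay below WT in every library of these tissues. It overlapped in the others, at 27.3 to 33.0 TPM in Mut BAT and 23.5 to 32.3 TPM in WT BAT, and at 17.3 to 25.6 TPM in Mut liver and 18.6 to 26.4 TPM in WT liver. The labels do not say which part of the gene was removed. The samples are whole tissue, in which fewer cells of a type and less RNA per cell cannot be told apart.

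The promoters of the genes that the results turn on are shown first. The complement genes C1qa, C1qc and C1qb lie side by side on chromosome 4 and were at similar levels, with C1qb over C1qa at 0.866 to 1.32 and C1qc over C1qa at 0.797 to 1.19 over the 32 libraries. Lyz2, the lysozyme of macrophages and granulocytes, was the most abundant member, and Cd68 and Lgals3 were the members called in liver. The 250 bases before the transcription start, from RefSeq on GRCm38.p6 and read on the strand of the gene, lie at chr4:136886201-136886450 for C1qb, chr4:136892915-136893164 for C1qc, chr10:117282273-117282522 for Lyz2, chr11:69666171-69666420 for Cd68 (all on the minus strand) and chr14:47373610-47373859 for Lgals3 (plus strand). Capitals mark AGGAAGT or its reverse complement ACTTCCT, a core of the kind that PU.1 is known to bind.
C1qb: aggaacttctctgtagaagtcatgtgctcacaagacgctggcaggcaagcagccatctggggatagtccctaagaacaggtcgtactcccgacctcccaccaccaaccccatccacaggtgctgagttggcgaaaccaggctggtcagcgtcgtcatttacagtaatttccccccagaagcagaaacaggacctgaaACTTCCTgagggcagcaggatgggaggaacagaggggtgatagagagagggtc
C1qc: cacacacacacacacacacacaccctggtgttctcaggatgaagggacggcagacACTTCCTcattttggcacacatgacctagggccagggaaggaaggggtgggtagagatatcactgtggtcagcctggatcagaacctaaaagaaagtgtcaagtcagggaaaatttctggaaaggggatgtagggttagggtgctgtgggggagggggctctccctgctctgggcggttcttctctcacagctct
Lyz2: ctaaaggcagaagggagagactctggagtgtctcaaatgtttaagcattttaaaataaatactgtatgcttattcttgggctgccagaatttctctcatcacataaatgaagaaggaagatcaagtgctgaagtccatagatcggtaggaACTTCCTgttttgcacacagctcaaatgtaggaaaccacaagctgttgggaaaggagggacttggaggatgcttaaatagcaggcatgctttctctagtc
Cd68: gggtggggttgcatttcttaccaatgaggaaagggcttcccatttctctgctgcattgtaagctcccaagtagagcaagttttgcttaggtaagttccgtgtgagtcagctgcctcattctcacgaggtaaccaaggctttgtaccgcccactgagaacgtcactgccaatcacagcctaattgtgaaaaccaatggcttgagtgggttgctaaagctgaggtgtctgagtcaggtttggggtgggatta
Lgals3: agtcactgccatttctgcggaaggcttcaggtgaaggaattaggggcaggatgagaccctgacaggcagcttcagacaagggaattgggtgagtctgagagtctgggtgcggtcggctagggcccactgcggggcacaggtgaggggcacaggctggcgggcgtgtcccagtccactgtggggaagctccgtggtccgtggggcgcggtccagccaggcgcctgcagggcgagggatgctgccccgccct
Promoters were available as 32 windows for 28 of the 35 members. AGGAAGT stood on either strand in 8 of the 32 windows, against 7.69% of all 32851 windows. The 8 windows belonged to 7 of the 28 members. These 7 were C1qb, C1qc, Fcgr1, Folr2, Lyz2, Mrc1 and Ptprc. The match began 53 bases before the start in C1qb, 195 in C1qc and 100 in Lyz2. The longer form GAGGAAGT, which contains the other, was in the window of C1qc and in 2.44% of all windows. GAGGAAG was in 10 of the 32 windows (9 members), against 10.6% of all windows. GGAAGT was in 13 of the 32 (12 members), against 19.7%, and AGGAAG in 17 (14 members), against 29.5%. These are matches of letters, and binding was not measured.

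The first comparison asked how the genes are distributed over the WT tissues, each tissue against the mean of the 3 others, with 30 of the 35 members tested. WT liver had the Kupffer cell markers. Clec4f, a lectin of Kupffer cells, stood at 13.1, 17.9, 23.7 and 43.3 TPM in the WT liver libraries, against 0.182 to 0.599 TPM in WT BAT, 0.219 to 0.526 TPM in WT heart and 0.302 to 0.700 TPM in WT muscle (log2 difference 4.06, SE 0.20, adjusted p = 2.05e-12). Every liver library was far above every library of the other tissues. Cd5l, a secreted macrophage survival protein, averaged 23.4 ± 18.1 TPM in WT liver, against 0.401 ± 0.0887 TPM in WT BAT, 0.469 ± 0.101 TPM in WT heart and 0.558 ± 0.159 TPM in WT muscle (SD, n = 4 each; log2 difference 3.81, adjusted p = 7.65e-11). Vsig4, a complement receptor, averaged 8.64 ± 5.64 TPM in WT liver and 1.55 ± 1.43 TPM in WT heart (SD, n = 4 each), where 1 library reached 3.62 TPM, and its log2 difference for liver was 2.55 (adjusted p = 1.06e-07).

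Liver did not lead for the list as a whole. In WT liver 6 members were called higher, against 42.6% of all 12710 genes tested, and 8 lower, against 38.7%. Besides the 3 Kupffer markers, the pore-forming protein Mpeg1, the mannose receptor Mrc1 and the calcium-binding protein Aif1 were higher in liver, while Lyz2, Lgals3, Gpnmb, Cd14, Csf1, Fcgr3, Ms4a7 and Ccr2 were lower. The balance between tissues depended on scaling. With libraries rescaled after removing mitochondrial RNA and the 10 genes of highest level, 5 members were called higher and 16 lower in WT liver, and over all genes 3233 higher and 8757 lower, against 5418 higher and 4919 lower without rescaling. The median of all genes was then -0.56 in WT liver (0.06 without rescaling) and that of the members -0.67 (-0.09). In WT BAT 15 members were called higher, against 36.8% of genes, and 4 lower, against 37%; with the same rescaling 21 were higher and 4 lower, and over all genes 7425 higher and 3512 lower, against 4673 and 4697 without it. The largest of these differences was that of Lgals3, the lectin galectin-3, which had 5.04, 14.2, 109 and 31.6 TPM in WT BAT (log2 difference 2.26, SE 0.47, adjusted p = 0.000362). These 4 libraries spanned a wide range. Without BAT WT library 3, 7 members were called higher and 5 lower, and without BAT WT library 1, 21 higher and 4 lower.

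In WT heart 5 members were called higher, against 25.1% of genes, and 3 lower, against 50.1%. Csf1, the growth factor of macrophages, was among the higher, at 9.99, 9.06, 8.39 and 11.4 TPM in WT heart, against means of 5.16 ± 2.69 TPM in WT BAT, 3.03 ± 0.550 TPM in WT liver and 2.74 ± 0.481 TPM in WT muscle (SD, n = 4 each; log2 difference 1.28, adjusted p = 1.04e-05). Lyve1, a hyaluronan receptor of resident macrophages and of lymphatic and sinusoidal endothelium, was also higher in heart (log2 difference 1.18, adjusted p = 0.0015). The count of 8 calls in heart was 15 without BAT WT library 3, 14 without liver WT library 4, 4 without heart WT library 3 and 5 without heart WT library 4. With rescaling 15 were higher and 2 lower, and over all genes 6636 higher and 3496 lower, against 3185 and 6371 without it. WT muscle had no member called higher, against 32.7% of genes, and 20 called lower, against 46.1%. The C1q genes were among these: C1qa averaged 8.96 ± 0.972 TPM in WT muscle, against 23.6 ± 13.1 TPM in WT BAT, 23.1 ± 5.42 TPM in WT heart and 18.4 ± 10.7 TPM in WT liver (SD, n = 4 each).

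The trace of Clec4f and Cd5l outside liver was between 0.625% and 3.22% of their mean in the 8 liver libraries. Alb, Apoa1, Ttr, Fgb and Cyp2e1, genes of hepatocytes, stood in the same libraries at 0.842% to 1.68% of theirs. The part of shared RNA or reads in these traces was not tested. In heart Clec4f was at 0.938, 0.844, 0.894 and 0.772 TPM in Mut libraries, against 0.398, 0.435, 0.219 and 0.526 TPM in WT libraries, below the level at which it was tested. These values did not overlap, as was so for 0.324% of all genes tested in heart with Mut above WT. In the 2 alternative settings that tested Clec4f in heart, limma did not call it (adjusted p 0.187 to 0.4235). The values of Cd5l overlapped, at 0.382 to 0.626 TPM in Mut heart and 0.318 to 0.524 TPM in WT heart.

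**Figure D1:**
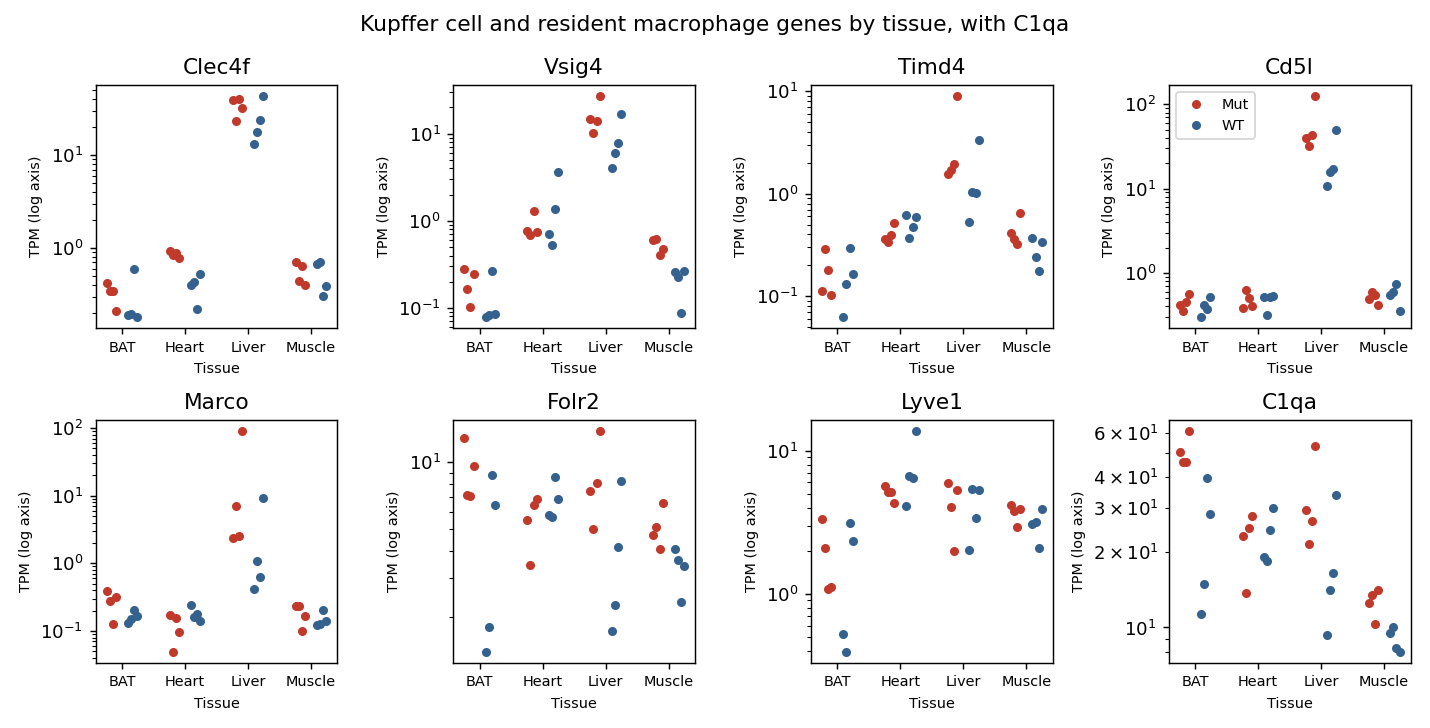
TPM (log axis) of 7 Kupffer cell and resident macrophage genes and of C1qa in each library, by tissue, with Mut libraries in red on the left and WT libraries in blue on the right of each tissue. Clec4f and Cd5l are near their trace level outside liver, whereas Folr2, Lyve1 and C1qa are present in all 4 tissues, with Lyve1 lowest in BAT and C1qa lowest in WT muscle, and 1 Mut liver library stands at 91.2 TPM of Marco.

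The second comparison set Mut against WT in BAT, where the macrophage genes were present at high levels in all Mut libraries and in some WT libraries. Of the 35 members 29 were tested, and the log2 fold change of each of the 29 was above 0, against 72.7% of the 12150 genes tested. Their median was 1.12, against 0.09 over all genes. No member was called by limma, and no gene of the tissue was (0% in either direction), while at an unadjusted p under 0.05 there were 24 members higher and none lower, against 17.2% of genes higher and 2.35% lower. The other 6 members (Clec4f, Vsig4, Timd4, Cd5l, Marco and Cx3cr1) averaged under 1 TPM in BAT.

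The WT libraries differed widely from each other. Summed over the 35 genes, Mut libraries held 904, 657, 678 and 946 TPM, against 127, 197, 762 and 411 TPM in WT libraries. WT library 3 lay inside the Mut range, WT library 4 was intermediate, and WT libraries 1 and 2 were the lowest. For 25 of the 29 tested members WT library 1 was the lowest of the 8, and for the other 4 it was WT library 2.

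Among the growth factor and lineage genes, Csf1r had 14.5, 11.0, 12.0 and 12.4 TPM in Mut BAT, against 2.79, 3.26, 11.2 and 7.74 TPM in WT BAT (log2 fold change 1.06, SE 0.33, adjusted p = 0.158). Its ligand Csf1 had 6.76, 5.10, 6.44 and 6.51 TPM in Mut BAT, against 2.40, 3.43, 6.69 and 8.11 TPM in WT BAT (0.33, SE 0.28, adjusted p = 0.552). The receptor was below the lowest Mut library in 3 of the WT libraries, and the ligand in 2 of them. Csf1 over Csf1r, as a ratio of TPM within a library, was 0.462 to 0.538 in Mut BAT and 0.596 to 1.05 in WT BAT. Spi1 was at 1.84 to 5.14 TPM in Mut BAT and 0.784 to 4.89 TPM in WT BAT (0.68, SE 0.36, adjusted p = 0.339).

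All 8 surface and lysosomal members had values above 0, with a median of 1.16. Adgre1, which encodes a classic macrophage surface marker, had 11.8, 7.23, 8.35 and 8.47 TPM in Mut BAT, against 1.17, 2.05, 8.53 and 4.64 TPM in WT BAT (log2 fold change 1.18, adjusted p = 0.167). Cd68, a lysosomal glycoprotein, had 37.6, 22.1, 20.7 and 38.7 TPM in Mut BAT, against 2.62, 5.46, 29.4 and 11.3 TPM in WT BAT (1.61, adjusted p = 0.173). In both genes WT library 3 alone reached the Mut values. Lyz2 had 219, 196, 211 and 246 TPM in Mut BAT, against 36.6, 61.8, 207 and 124 TPM in WT BAT (1.30, adjusted p = 0.167). Lyz1, its near copy, was at 0.0455 to 6.57 TPM over the 32 libraries, and reads can be split between the pair. The cysteine protease Ctss (1.52), the mannose receptor Mrc1 (1.14), Mpeg1 (1.12), the membrane protein Ms4a7 (0.95) and the hemoglobin scavenger receptor Cd163 (0.76) had adjusted p between 0.130 and 0.288.

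The C1q subunits, which form the first component of the classical complement pathway, had much the same values as each other. C1qa had 50.3, 45.9, 46.0 and 61.2 TPM in Mut BAT, against 11.3, 14.9, 39.8 and 28.5 TPM in WT BAT (log2 fold change 1.23, SE 0.33, adjusted p = 0.132). C1qb had 63.6, 54.0, 52.9 and 73.6 TPM in Mut BAT, against 10.4, 15.8, 52.4 and 35.03 TPM in WT BAT (1.32, SE 0.41, adjusted p = 0.158). C1qc had 48.7, 43.4, 42.7 and 56.2 TPM in Mut BAT, against 9.24, 13.2, 41.1 and 27.8 TPM in WT BAT (1.24, SE 0.38, adjusted p = 0.154). For all 3 the Mut libraries lay above every WT library, though WT library 3 came close. In all, 5 of the 29 members did not overlap (these 3, Fcgr3 and Aif1), against 7.75% of all genes with Mut above WT, and none had Mut below WT, against 1.65%. As a ratio within a library, C1qb over C1qa was 1.15 to 1.27 in Mut BAT and 0.919 to 1.32 in WT BAT.

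Among the immunoglobulin receptors and their adaptors, Fcgr3 had 17.6, 15.4, 15.2 and 18.4 TPM in Mut BAT, against 3.61, 4.44, 13.7 and 9.38 TPM in WT BAT (log2 fold change 1.16, SE 0.32, adjusted p = 0.142). Reads of Fcgr3 can be shared with related Fc receptor genes. The adaptors Fcer1g (1.30) and Tyrobp (1.40), which carry activation motifs for such receptors, had adjusted p of 0.176 and 0.158. Trem2, a lipid receptor that signals through Tyrobp, had 15.2, 7.48, 9.82 and 19.5 TPM in Mut BAT, against 1.09, 1.67, 13.6 and 3.86 TPM in WT BAT (1.57, SE 0.54, adjusted p = 0.179). Fcgr1, a high-affinity immunoglobulin receptor (0.74, adjusted p = 0.249), and Cd14, a receptor for bacterial lipopolysaccharide (0.50, adjusted p = 0.225), had smaller values.

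Lgals3 and Gpnmb, which mark lipid-loaded macrophages, had the largest log2 fold changes of the list in BAT. Lgals3 had 147, 61.7, 59.1 and 128 TPM in Mut BAT, against 5.04, 14.2, 109 and 31.6 TPM in WT BAT (log2 fold change 1.94, SE 0.75, adjusted p = 0.206). Gpnmb, a lysosome-associated glycoprotein, had 18.8, 10.1, 8.62 and 18.2 TPM in Mut BAT, against 0.594, 2.27, 12.2 and 3.69 TPM in WT BAT (1.74, SE 0.55, adjusted p = 0.158). In both genes WT library 3 was above 2 of the 4 Mut libraries. Levels relative to C1qa also shifted between libraries: Trem2 over C1qa was 0.163 to 0.318 in Mut BAT, against 0.0962 to 0.342 in WT BAT, and Gpnmb over C1qa was 0.188 to 0.373 in Mut BAT, against 0.0525 to 0.307 in WT BAT.

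The smallest p of the list was that of Ccr2, the chemokine receptor of monocytes, with 6.40, 3.56, 5.04 and 5.55 TPM in Mut BAT, against 0.793, 1.91, 3.76 and 2.02 TPM in WT BAT (log2 fold change 1.04, SE 0.26, adjusted p = 0.125). Aif1 had 4.03, 3.97, 4.02 and 7.45 TPM in Mut BAT, against 0.949, 2.07, 3.94 and 1.58 TPM in WT BAT (0.95, SE 0.28, adjusted p = 0.151). The Mut libraries of Aif1 lay above every WT library, and those of Ccr2 overlapped in 1 library. The wider leukocyte genes Ptprc (CD45, 0.84), Laptm5 (a lysosomal protein, 0.98) and the integrin Itgam (0.91) had adjusted p of 0.179 to 0.283. Of the resident macrophage genes, the folate receptor Folr2 stood at 7.05 to 12.8 TPM in Mut BAT and 1.40 to 8.78 TPM in WT BAT (1.07, adjusted p = 0.217), and Lyve1 at 1.09 to 3.36 TPM in Mut BAT and 0.395 to 3.11 TPM in WT BAT (0.26, adjusted p = 0.755).

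Which WT libraries entered decided the BAT result. Without WT library 3, 24 of the 29 members were called higher, against 6.41% of all genes, with a median of 1.46, and Cd68 had a log2 fold change of 2.16 and Lgals3 of 2.67. Without WT libraries 1 and 2 together, a setting added after the data were seen, no member was called, 27 of 29 had values above 0 and the median was 0.44, with Csf1 at -0.22 and Lyve1 at -0.41. In 1 fit over all 32 libraries, 20 members were called higher, against 6.48% of genes. That fit shares the estimate of spread between tissues, which can understate that of BAT.

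**Figure D2:**
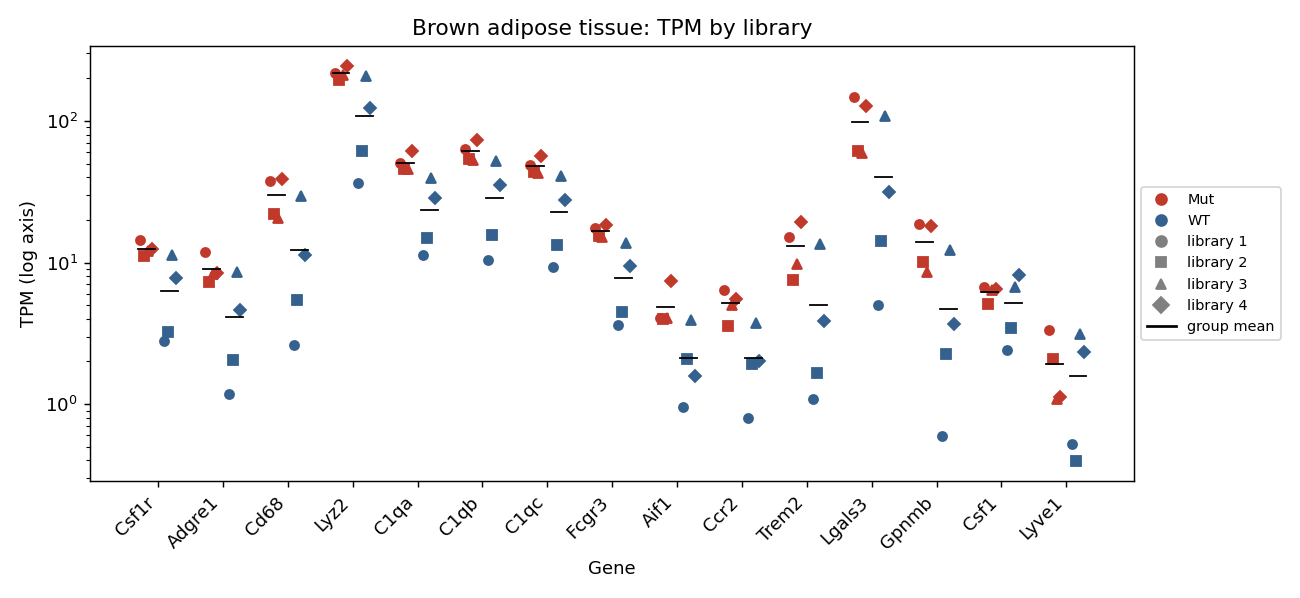
TPM (log axis) of 15 genes in the 8 BAT libraries, with Mut in red on the left and WT in blue on the right of each gene, a symbol shape per library number and a line at the group mean. WT library 3 (triangle) lies with the Mut libraries in nearly all genes shown, and WT libraries 1 and 2 lie lowest.

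Markers of other cell types were summed in the same BAT libraries. Fibroblast genes (6) summed to 323 to 574 TPM in Mut BAT, against 149 to 267 TPM in WT BAT, and all 6 had log2 fold changes above 0 (median 0.98). Globin and other red blood cell genes (5) summed to 4081 to 6220 TPM in Mut BAT, against 2096 to 3864 TPM in WT BAT. Endothelial genes (8) summed to 139 to 174 TPM in Mut BAT and 124 to 137 TPM in WT BAT. For all 3 lists the Mut libraries lay above every WT library, and WT library 3 was the highest WT library for the fibroblast and endothelial sums. A further 36 macrophage genes outside the list summed to 536 to 684 TPM in Mut BAT and 378 to 602 TPM in WT BAT, and all 36 had values above 0 (median 0.72). The 10 neutrophil genes summed to at most 9.57 TPM in Mut BAT and 3.46 TPM in WT BAT, with 7 of them (among them Ly6g) under 0.5 TPM in every library, and the 12 T and NK cell genes to at most 5.06 TPM and 5.32 TPM. B cell genes (8) summed to 41.8 to 58.0 TPM in Mut BAT and 18.4 to 31.9 TPM in WT BAT, while Cd79a, Ms4a1 and Pax5 were under 0.5 TPM. Adipocyte genes (5) summed to 6464 to 6927 TPM in Mut BAT and 6248 to 7310 TPM in WT BAT, and muscle fibre genes (5) to 949 to 2466 TPM in Mut BAT and 1051 to 1145 TPM in WT BAT. The part of these other cell types in the macrophage values was not tested.

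In liver, the third comparison, Cd68 and Lgals3 rose in Mut. Of the 30 members tested all 30 had log2 fold changes above 0, against 69% of the 11994 genes tested, with a median of 0.95 against 0.10 over all genes. The 2 called members stand against 3.78% of all genes called higher, and none was called lower, against 0.384%. Under median-ratio scaling 148 genes were called higher and 159 lower, against 453 and 46 in the unscaled TPM, and 1 member was called, Cd68; the median was then 0.86 for the members and -0.02 for all genes. At an unadjusted p under 0.05 there were 20 members higher, against 21.4% of genes, and none lower, against 4.46%. Mut lay above WT in every library for 3 of the 30 members, against 14.3% of all genes, and below WT for none, against 2.12%. In 1 fit over all 32 libraries 13 members were called higher, against 13.4% of genes.

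Cd68 had 8.90, 5.97, 6.68 and 10.5 TPM in Mut liver, against 2.65, 2.68, 2.33 and 5.61 TPM in WT liver (log2 fold change 1.09, SE 0.23, adjusted p = 0.0380). Lgals3 had 7.49, 6.08, 4.88 and 11.1 TPM in Mut liver, against 2.65, 2.62, 3.32 and 4.56 TPM in WT liver (0.94, SE 0.22, adjusted p = 0.0475). Mpeg1 had 18.0, 16.3, 22.3 and 43.4 TPM in Mut liver, against 8.23, 9.53, 7.80 and 16.0 TPM in WT liver (1.14, SE 0.30, adjusted p = 0.0630). In these 3 genes no WT library reached the lowest Mut library, although WT library 4 was the highest of the WT libraries in each. Both calls were close to the threshold: under 16 alternatives Cd68 was called in 8 (adjusted p 0.0322 to 0.108) and Lgals3 in 5 (0.0444 to 0.196). Neither was called without Mut library 1, 2 or 4 or without WT library 1, 2 or 3, and in addition Cd68 was not called without Mut library 3 nor Lgals3 without WT library 4.

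The libraries numbered 4 stood apart in both genotypes. Summed over the 35 genes, Mut livers held 414, 310, 379 and 904 TPM, against 135, 183, 198 and 439 TPM in WT livers. Mut library 4 was the highest of the 8 for 25 of the 30 tested members, and WT library 1 the lowest for 23. Without Mut library 4, no member was called, 26 of 28 tested had values above 0 and the median was 0.68. Without Mut library 4 and WT library 4 together, a setting added after the data were seen, 8 of 28 were called higher, against 0.84% of all genes, with a median of 0.92; these were Lyz2, Cd68, Mpeg1, Cd5l, Laptm5, Spi1, Ctss and C1qc, and Lgals3 was not among them.

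None of the Kupffer cell genes was called in liver, and their values were unlike each other. Clec4f had 39.0, 23.1, 40.6 and 32.0 TPM in Mut liver, against 13.1, 17.9, 23.7 and 43.3 TPM in WT liver (log2 fold change 0.55, SE 0.32, adjusted p = 0.306). Vsig4 had 14.9, 10.1, 14.2 and 27.1 TPM in Mut liver, against 3.99, 5.93, 7.89 and 16.8 TPM in WT liver (0.94, SE 0.38, adjusted p = 0.160). Cd5l had 39.6, 31.7, 42.8 and 126 TPM in Mut liver, against 10.7, 15.7, 17.0 and 50.1 TPM in WT liver (1.34, SE 0.51, adjusted p = 0.135). For Vsig4 and Cd5l a single WT library, number 4, lay within the Mut range, and for Clec4f that same library was the highest of all 8. Timd4, a receptor for phosphatidylserine on dying cells, had 1.57, 1.70, 1.97 and 9.00 TPM in Mut liver, against 0.524, 1.03, 1.03 and 3.33 TPM in WT liver (0.73, SE 0.46, adjusted p = 0.342).

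Marco, a scavenger receptor, had 2.39, 6.93, 2.54 and 91.2 TPM in Mut liver, against 0.412, 1.08, 0.639 and 9.10 TPM in WT liver (log2 fold change 1.87, SE 1.03, adjusted p = 0.280). Marco over Clec4f was 0.0612 to 2.85 in Mut liver and 0.0270 to 0.210 in WT liver, with the top of each range in library 4. Adgre1 followed, with 4.54, 4.21, 4.62 and 23.4 TPM in Mut liver, against 1.27, 2.51, 2.41 and 5.94 TPM in WT liver (1.10, SE 0.51, adjusted p = 0.207). In Mut library 4 Marco, Adgre1, Cd5l and Timd4 were thus several times above the other Mut libraries, while Clec4f lay within their range.

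The resident genes Lyve1 and Cd163 and the mannose receptor Mrc1 had fold changes near 0 in liver. Lyve1 had 5.97, 4.05, 2.00 and 5.31 TPM in Mut liver, against 2.03, 5.37, 3.41 and 5.32 TPM in WT liver (log2 fold change 0.08, SE 0.30). Cd163 had 5.53, 3.45, 3.84 and 2.47 TPM in Mut liver, against 1.38, 2.54, 4.29 and 8.43 TPM in WT liver (0.06, SE 0.37). For Mrc1 the values were 8.79, 8.04, 6.98 and 11.9 TPM in Mut liver, against 7.34, 7.31, 8.54 and 12.3 TPM in WT liver (0.01, SE 0.18). The groups overlapped throughout, and the sign of all 3 turned under median-ratio scaling (-0.03 for Lyve1, -0.04 for Cd163 and -0.11 for Mrc1). Lyve1 and Mrc1 are also expressed by sinusoidal endothelium, whose cells share the tissue. Folr2, another resident gene, stood at 5.01 to 13.9 TPM in Mut liver and 1.73 to 8.23 TPM in WT liver (1.00, SE 0.38, adjusted p = 0.139).

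Of the growth factor and lineage genes, Csf1r had 10.6, 7.69, 9.02 and 21.8 TPM in Mut liver, against 3.21, 4.86, 5.18 and 12.4 TPM in WT liver (log2 fold change 0.88, SE 0.38, adjusted p = 0.179). Csf1 was at 3.30 to 5.99 TPM in Mut liver and 2.57 to 3.74 TPM in WT liver (0.37, adjusted p = 0.199), and Spi1 at 1.93 to 4.38 TPM in Mut liver and 0.356 to 2.19 TPM in WT liver (0.95, adjusted p = 0.0744). C1qa had 29.5, 21.5, 26.6 and 53.2 TPM in Mut liver, against 9.31, 14.1, 16.4 and 33.8 TPM in WT liver (0.86, SE 0.37, adjusted p = 0.176). Only WT library 4 reached the Mut values of C1qa. C1qb (1.00, adjusted p = 0.147) and C1qc (1.02, adjusted p = 0.126) lay close to it. Lyz2 had 43.3, 45.5, 40.3 and 126 TPM in Mut liver, against 16.6, 21.4, 18.6 and 53.5 TPM in WT liver (1.17, SE 0.43, adjusted p = 0.126).

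Ctss (1.14, adjusted p = 0.0584) was the nearest to a call after Cd68 and Lgals3, and the other surface gene Ms4a7 had 0.65 (adjusted p = 0.352). The receptor and adaptor genes Fcgr3 (0.66), Fcer1g (1.00), Tyrobp (1.02), Trem2 (0.44) and Cd14 (0.93) had adjusted p between 0.110 and 0.231. Ptprc (0.83), Laptm5 (0.97) and Aif1 (1.07) had 0.109 to 0.139. Trem2 was low in liver, at 0.498 to 2.15 TPM in Mut and 0.435 to 1.01 TPM in WT. Fcgr1, Itgam, Cx3cr1, Ccr2 and Gpnmb averaged under 1 TPM in liver. Among these Gpnmb, Ccr2 and Cx3cr1 did not overlap, with Mut above WT, as was so for 14.3% of all genes tested in liver. Gpnmb had 1.16, 0.741, 0.647 and 1.43 TPM in Mut liver, against 0.231, 0.273, 0.155 and 0.225 TPM in WT liver. With no filter on low values its log2 fold change was 0.69 (adjusted p = 0.0707). Ccr2 had 1.42, 0.943, 0.712 and 1.22 TPM in Mut liver, against 0.425, 0.528, 0.241 and 0.350 TPM in WT liver. Cx3cr1 had 0.396, 0.473, 0.281 and 0.684 TPM in Mut liver, against 0.177, 0.218, 0.169 and 0.111 TPM in WT liver.

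**Figure D3:**
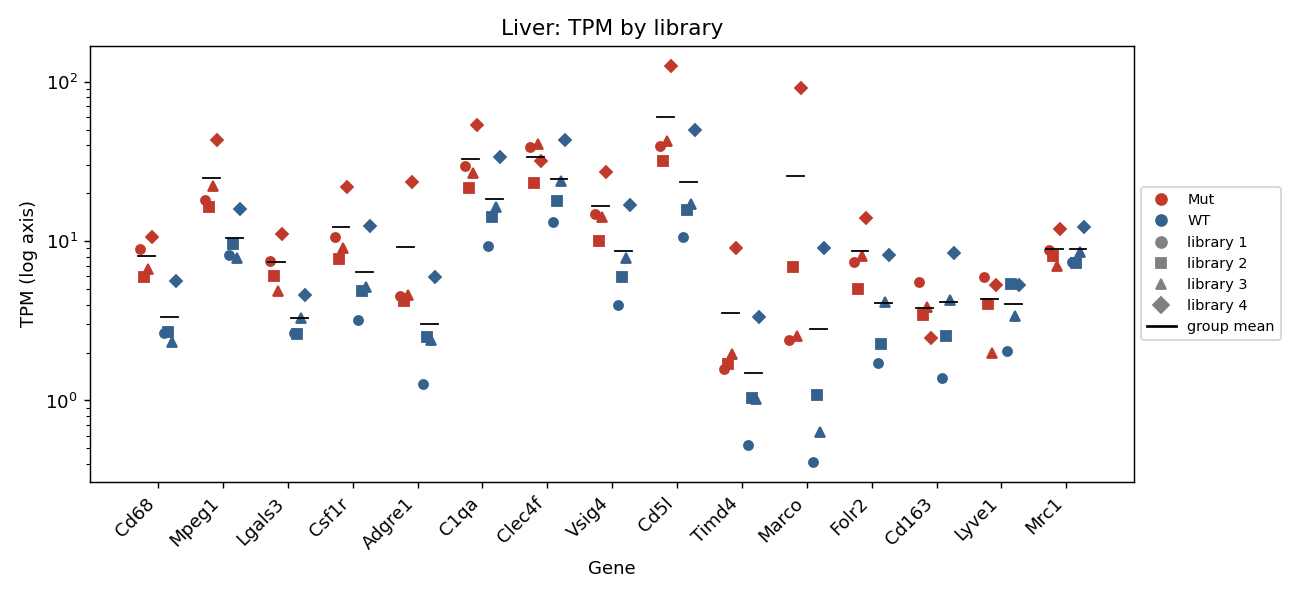
TPM (log axis) of 15 genes in the 8 liver libraries, with Mut in red on the left and WT in blue on the right of each gene, a symbol shape per library number and a line at the group mean. Library 4 (diamond) is the highest of its group in most genes shown, with Marco at 91.2 TPM in Mut library 4, and Cd163, Lyve1 and Mrc1 overlap fully.

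Of other lists in liver, that of lipid-associated macrophages held 13 genes, of which 11 were tested. Among the 11, 8 had log2 fold changes above 0 (median 0.29), against 69% of all genes. Of them 3 were called higher, against 3.78% of all genes. Cd36, a fatty acid transporter that hepatocytes and adipocytes also express, had 217, 171, 144 and 131 TPM in Mut liver, against 60.2, 90.7, 54.3 and 76.8 TPM in WT liver (log2 fold change 1.22, SE 0.19, adjusted p = 0.0191). The macrophage elastase Mmp12 had 5.05, 1.81, 2.22 and 2.38 TPM in Mut liver, against 0.682, 0.606, 0.679 and 0.489 TPM in WT liver (1.19, SE 0.21, adjusted p = 0.0254). Osteopontin, Spp1, had 45.05, 31.9, 28.1 and 34.7 TPM in Mut liver, against 16.3, 22.2, 22.6 and 16.7 TPM in WT liver (0.81, SE 0.16, adjusted p = 0.0313). In all 3 the lowest Mut library was above the highest WT library, as it was in 14.3% of all genes tested. Of 36 further macrophage genes, 34 were tested and 32 had values above 0 (median 0.57). Fibroblast collagens rose too: Col1a1 (1.07), Col1a2 (0.84) and Col3a1 (1.16) were called higher among 6 fibroblast genes, against 3.78% of all genes. The 6 summed to 125 to 192 TPM in Mut liver and 95.9 to 135 TPM in WT liver. Col1a1 had 5.43, 3.92, 3.86 and 6.94 TPM in Mut liver, against 1.78, 2.42, 1.502 and 1.63 TPM in WT liver. Col1a2 had 9.13, 6.67, 6.08 and 9.82 TPM in Mut liver, against 3.54, 4.67, 3.84 and 3.62 TPM in WT liver, and Col3a1 had 20.8, 15.4, 15.7 and 24.5 TPM in Mut liver, against 9.30, 11.0, 6.77 and 5.31 TPM in WT liver. None of the 3 overlapped, as was so for 14.3% of all genes with Mut above WT. Themis, a T cell gene, rose, with 8.05, 7.62, 9.18 and 6.51 TPM in Mut liver, against 1.51, 1.32, 0.241 and 0.275 TPM in WT liver (2.33, SE 0.24, adjusted p = 0.00840), while Cd3d, Cd3e, Cd3g, Cd4 and Cd8a were under 0.5 TPM in every liver library. The 10 neutrophil genes summed to 1.10 to 9.20 TPM in Mut liver and 1.06 to 2.05 TPM in WT liver. Endothelial genes (8) summed to 56.6 to 71.4 TPM in Mut liver and 51.2 to 89.8 TPM in WT liver, and red blood cell genes (5) to 1067 to 4286 TPM in Mut liver and 1226 to 1568 TPM in WT liver. The highest red blood cell sum was that of Mut library 4. The part of fibroblasts, blood or other cells in the macrophage values was not tested.

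In muscle the differences were small and even. All 22 members tested had log2 fold changes above 0, against 67% of the 11771 genes tested, with a median of 0.35 against 0.05 over all genes. No member was called by limma, against 0% of genes higher and 0.0085% lower. At an unadjusted p under 0.05 there were 13 members higher, against 6.33% of genes, and none lower, against 1.43%. In 7 of the 22 tested members every Mut library lay above every WT library, against 3.83% of genes. The 13 members not tested averaged under 1 TPM.

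The 7 were Csf1r, Cd68, Mrc1, Lyz2, C1qa, Fcer1g and Ccr2. Csf1r had 5.26, 5.48, 5.20 and 6.28 TPM in Mut muscle, against 3.43, 3.51, 2.90 and 4.07 TPM in WT muscle (log2 fold change 0.55, SE 0.10, adjusted p = 0.224). Cd68 had 5.05, 3.40, 3.39 and 3.47 TPM in Mut muscle, against 2.60, 2.68, 2.09 and 2.53 TPM in WT muscle (0.46, SE 0.12, adjusted p = 0.431). C1qa had 12.5, 13.5, 10.4 and 14.1 TPM in Mut muscle, against 9.50, 10.1, 8.29 and 8.01 TPM in WT muscle (0.45, SE 0.11, adjusted p = 0.402). The gap between the lowest Mut and the highest WT library was narrow for C1qa, at 10.4 and 10.1 TPM. It was wider for Csf1r (5.20 and 4.07 TPM) and for Cd68 (3.39 and 2.68 TPM). Lyz2 had 45.1, 54.0, 45.2 and 60.0 TPM in Mut muscle, against 37.2, 40.7, 30.6 and 39.3 TPM in WT muscle (0.45, SE 0.12, adjusted p = 0.431). Fcer1g had 4.61, 5.53, 4.83 and 4.57 TPM in Mut muscle, against 4.15, 2.81, 3.72 and 3.61 TPM in WT muscle. Mrc1 had 3.49, 3.71, 4.11 and 3.86 TPM in Mut muscle, against 3.43, 2.98, 2.48 and 1.97 TPM in WT muscle, and Ccr2 had 1.53, 1.66, 1.51 and 1.40 TPM in Mut muscle, against 1.35, 1.19, 0.785 and 0.773 TPM in WT muscle.

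The remaining tested members overlapped between genotypes in muscle. Of the untested members, Vsig4, Itgam and Fcgr1 did not overlap, with Mut above WT, as was so for 3.83% of the genes tested. Vsig4 had 0.610, 0.625, 0.410 and 0.476 TPM in Mut muscle, against 0.262, 0.228, 0.0868 and 0.267 TPM in WT muscle. Itgam had 0.859, 0.863, 0.661 and 1.12 TPM, against 0.520, 0.504, 0.554 and 0.659 TPM. Fcgr1 had 0.185, 0.189, 0.285 and 0.374 TPM, against 0.180, 0.184, 0.0367 and 0.132 TPM. Folr2 (0.49), C1qb (0.45), C1qc (0.40), Ctss (0.38), Tyrobp (0.29) and Lgals3 (0.45) had unadjusted p under 0.05 and adjusted p of 0.524 to 0.637. Csf1, Adgre1, Cd163, Mpeg1, Lyve1, Fcgr3, Cd14, Laptm5 and Gpnmb had log2 fold changes of 0.10 to 0.31. Fibroblast genes summed to 397 to 452 TPM in Mut muscle and 311 to 374 TPM in WT muscle, and red blood cell genes to 624 to 2984 TPM in Mut muscle and 545 to 781 TPM in WT muscle. Their part in the macrophage values was not tested.

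In heart no difference was detected in these genes. Of 27 members tested 7 had log2 fold changes above 0, against 19.3% of the 12019 genes tested, and the median was -0.07, against -0.11 over all genes; the other 8 members averaged under 1 TPM. No member was called by limma (0.00832% of genes higher, 0.141% lower). None of the 27 had an unadjusted p under 0.05 in either direction, against 0.574% of genes higher and 11.1% lower. None of the 27 had groups that did not overlap, against 0.324% with Mut above and 7.21% with Mut below. C1qa had 23.2, 13.8, 25.1 and 28.0 TPM in Mut heart, against 19.2, 18.5, 24.6 and 30.1 TPM in WT heart (-0.05, SE 0.21, adjusted p = 0.917). Csf1r had 6.73, 4.86, 7.80 and 8.19 TPM in Mut heart, against 5.77, 5.93, 6.50 and 9.43 TPM in WT heart (-0.00, SE 0.17, adjusted p = 0.998). The lowest values of both were in Mut library 2 and the highest in WT library 4.

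That pattern held widely: Mut library 2 was the lowest of the 8 for 22 of the 27 members, and WT library 4 the highest for 18. Mitochondrially encoded RNA took 54.5% of the TPM in Mut library 2, against 40.7% to 44.4% in the other Mut heart libraries and 41.2% to 43.7% in the WT heart libraries. Without Mut library 2 the median was 0.08, with median-ratio scaling 0.03, and 0.05 with libraries rescaled after removing mitochondrial RNA and the 10 genes of highest level, so the sign of the heart median is not settled. Red blood cell genes summed to 3248 to 26213 TPM in Mut heart and 3088 to 6408 TPM in WT heart, and their part in the macrophage values was not tested. Lgals3 had the smallest p, with 4.12, 2.25, 2.81 and 3.19 TPM in Mut heart, against 4.79, 4.47, 2.54 and 8.24 TPM in WT heart (-0.49, SE 0.24, adjusted p = 0.447). Lyve1 (-0.42), Cd163 (-0.35) and Vsig4 (-0.32) were each highest in WT library 4, at 13.8, 9.29 and 3.62 TPM.

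**Figure D4:**
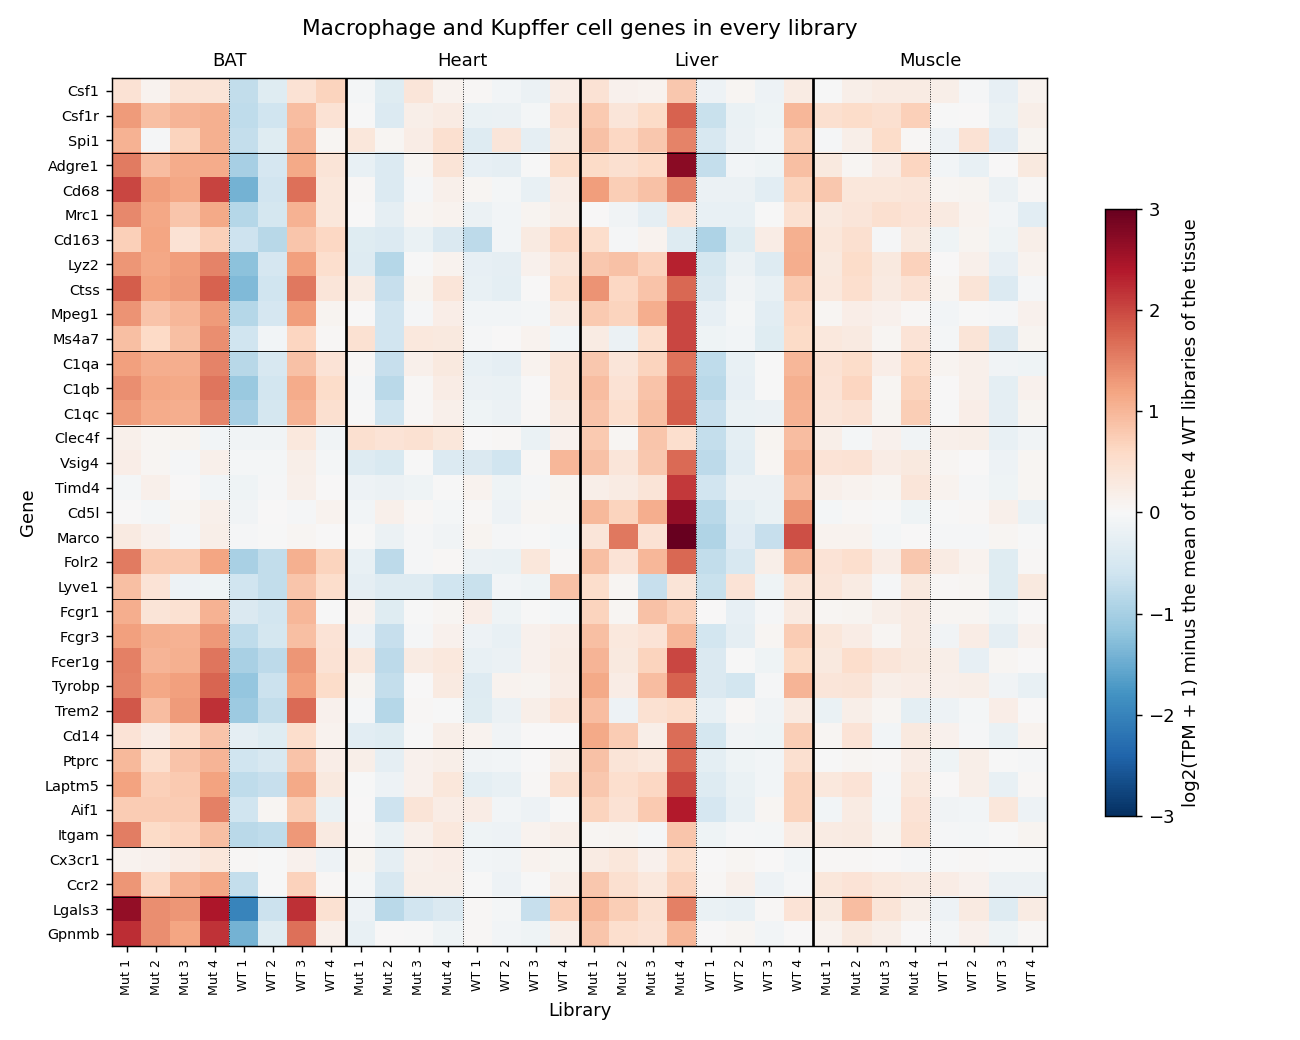
Heat map of the 35 genes (rows, grouped by role) in the 32 libraries (columns, by tissue, Mut left of WT), coloured by log2(TPM + 1) minus the mean of the 4 WT libraries of the tissue, with colours that stop at 3 in either direction. Most rows of a library share 1 colour: BAT WT libraries 1 and 2 are low and BAT WT library 3 is high, liver Mut library 4 is the darkest, muscle differs little and heart Mut library 2 is the lowest of its tissue.

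The last comparison tested whether the genotype effect differed between tissues, in 1 model over the 32 libraries and on genes that averaged at least 1 TPM in every tissue, which held 20 members. No member was called by the F test of the interaction, against 5.87% of all 10109 genes, while 13 of the 20 had an unadjusted p under 0.05. Of the 6 pairs of tissues, BAT minus heart gave calls among the members. There 4 of the 20 were called higher, against 6.92% of genes. They were Lgals3 (difference of log2 fold changes 2.43, SE 0.68, adjusted p = 0.0346), Cd68 (1.68, SE 0.50, adjusted p = 0.0447), Fcgr3 (1.35, SE 0.37, adjusted p = 0.0330) and Mrc1 (1.16, SE 0.34, adjusted p = 0.0431). This model shares 1 estimate of spread over the tissues. The SE of the BAT effect fitted alone was 0.75 for Lgals3, 0.55 for Cd68, 0.36 for Mrc1 and 0.32 for Fcgr3. For all but Fcgr3 it was above the SE of the difference, so the model can understate the spread of BAT. The log2 fold change of Lgals3 was 1.94 in BAT and -0.49 in heart, that of Cd68 was 1.61 in BAT and -0.07 in heart, that of Fcgr3 was 1.16 in BAT and -0.19 in heart, and that of Mrc1 was 1.14 in BAT and -0.02 in heart. The count depended on BAT WT library 3, without which 17 of the 20 were called, against 14.9% of genes. It was 0 without BAT Mut library 1 or 4, BAT WT library 1 or 2, heart Mut library 2 or heart WT library 2 or 4, 2 without heart Mut library 1 or muscle Mut library 4, and 7 without liver WT library 4. Under median-ratio scaling no member was called, and over all genes 105 were called higher and 290 lower, against 700 and 11 in the unscaled TPM; the rescaling gave 145 higher and 43 lower.

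**Figure D5:**
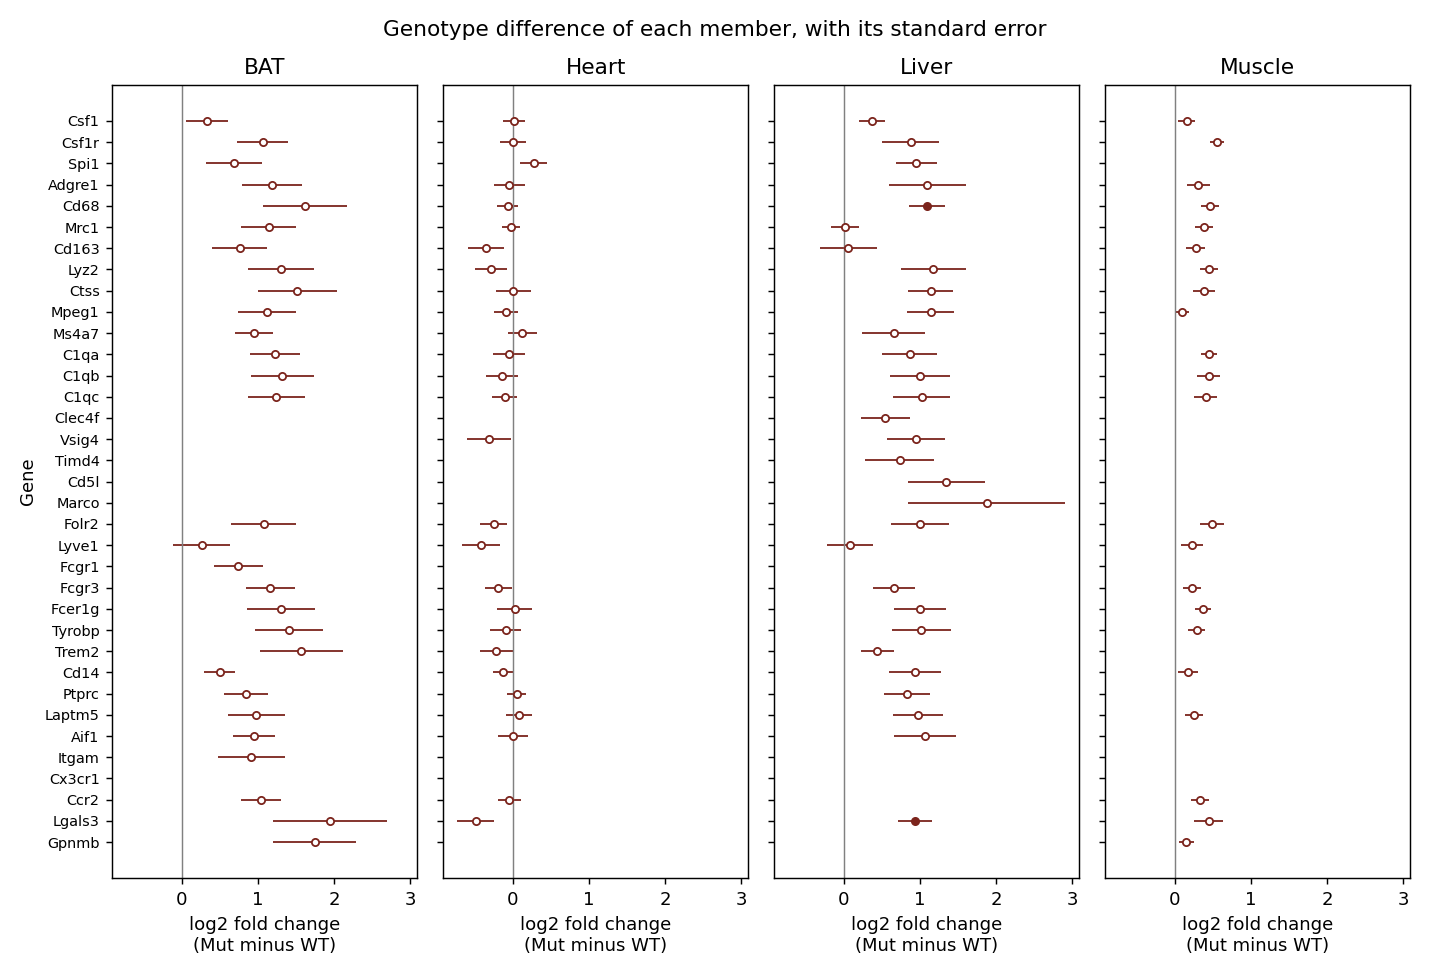
Log2 fold change (Mut minus WT, on log2(TPM + 1)) of each tested member in the 4 tissues, with bars for its standard error and filled points for adjusted p under 0.05. All tested members lie right of 0 in BAT, liver and muscle, with filled points for Cd68 and Lgals3 in liver, and the heart values lie on both sides of 0.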

How the data were processed

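The authors deposited transcript abundances in TPM for the 32 libraries, made with Salmon per the submitters' processing notes; neither its version nor the transcriptome or build is given in the sources used here. Per the labels' protocols, total RNA was extracted on magnetic beads and strand-specific libraries were made. Of 147493 transcript identifiers, 136081 (92.26%) matched GENCODE M21 (GRCm38), and their TPM were summed per gene; the unmatched held 0.451% to 0.896% of a library. TPM keeps no read totals, so depth is unknown and no counting interval is given.

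Each tissue was fitted with limma 3.58.1 (trend) in R 4.3.3 on log2(TPM + 1), without covariates, for genes that averaged 1 TPM or more in its 8 libraries. Differences between tissues used 1 model over 32 libraries, and WT tissues 1 model over 16. Tests are two-sided with Benjamini-Hochberg adjustment over all genes. The p-values measure the spread between these libraries. The submitters describe 4 individual mice per tissue, but not whether a mouse gave several organs, and the models over tissues treat all libraries as independent. The procedure was tested on simulated data in which the spread of each gene was capped. The cap lay below the spread of many members in BAT and liver, which that test therefore does not cover. Tables and figures were made with Python 3.11.15.

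Groups come from sample titles. Values per library are given for members called or not overlapping and for 14 marker members, and of other lists for up to 4 called genes per tissue; a few genes of those lists are not reported here. The members, lists and rule were chosen with earlier results of these data known. Alternatives were leaving out each library, 1 model for all 32 libraries, a block for the replicate number, scaling by median ratios, scaling after removing mitochondrial RNA and the 10 genes of highest level, a pseudocount of 0.1, a minimum of 5 TPM, no minimum, and 2 settings added after the data were seen.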

Additional observations from a re-analysis of the deposited data

Results flagged for a closer look

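In groups of 4 libraries, 216 combinations of a gene, tissue and genotype were examined for 1 library far from the other 3. Of these 12 had one, close to the share of about 1 in 20 groups that chance alone gives. Marco in liver, at 91.2 TPM in Mut library 4, was not among the 12. In BAT, Aif1 stood apart in Mut library 4 at 7.45 TPM. In heart, 4 of the flags were low values of Mut library 2, with Fcer1g at 3.56, Ptprc at 0.968, Ms4a7 at 0.627 and Trem2 at 0.367 TPM. Also in heart, Vsig4 was apart in Mut library 3 at 1.28 TPM and Mpeg1 in WT library 4 at 3.21 TPM. In liver, Mut library 4 was apart for Lyz2 at 126 TPM, Adgre1 at 23.4 TPM and Timd4 at 9.00 TPM, and WT library 4 for Cd68 at 5.61 TPM. In muscle, Cd68 was apart in Mut library 1 at 5.05 TPM.

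The genotype effect in BAT exceeded that in heart by a test of the difference itself for Lgals3 (2.43 on the log2 scale), Cd68 (1.68), Fcgr3 (1.35) and Mrc1 (1.16), by limma with adjusted p under 0.05. The F test of the interaction called no member. For BAT minus heart none was called with no filter, a filter at 5 TPM, median-ratio scaling or rescaling without mitochondrial RNA. Leaving out any of several single libraries also gave none.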

How the results depend on the processing

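Counts are of genes called by limma, with the main count in brackets where it is first needed. With no filter on low values, genes called were 4 in BAT (main 0), 0 in heart (18), 35 in liver (499), 6 in muscle (1) and 380 for BAT minus heart (711), and members called were 0 in liver (2), 0 for BAT minus heart (4) and 5 in WT heart (8). With a filter at 5 TPM, genes were 1 in BAT, 10 in heart and 355 for the interaction (593), and members 0 for BAT minus heart, 10 in WT BAT (19), 5 in WT heart, 7 in WT liver (14) and 13 in WT muscle (20). With median-ratio scaling, genes were 11 in heart, 307 in liver and 395 for BAT minus heart, and members 1 in liver, 0 for BAT minus heart and 13 in WT heart. With libraries rescaled after removing mitochondrial RNA and the 10 genes of highest level, genes were 2 in muscle and 188 for BAT minus heart, and members 0 for BAT minus heart and 17 in WT heart. In 1 fit over all libraries, genes were 848 in BAT, 166 in heart, 1902 in liver and 7 in muscle, and members 20 in BAT and 13 in liver. The cause of these shifts was not tested.

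The replicate numbers are not stated to pair libraries, and the deviations of same-numbered Mut and WT libraries correlated at -0.252 to 0.121. Those of same-numbered libraries of 1 genotype in different tissues correlated at -0.0864 to 0.149 and were above 0 in 39 of 48 pairs. With the number as a replicate block, genes were 9 in heart, 126 in liver, 0 in muscle, 641 for the interaction and 847 for BAT minus heart, and members 10 in liver, 2 of 20 for the interaction and 10 of 20 for BAT minus heart.

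Leaving out 1 library at a time gave, for Mut against WT, 0 to 819 genes in BAT, 7 to 20 in heart, 22 to 390 in liver and 0 to 8 in muscle. Members called were 0 to 24 in BAT, 0 to 0 in heart, 0 to 3 in liver and 0 to 0 in muscle. Their median log2 fold change was 0.84 to 1.46 in BAT, -0.19 to 0.08 in heart, 0.68 to 1.20 in liver and 0.29 to 0.40 in muscle. The interaction gave 254 to 1030 genes and 0 to 11 members, and BAT minus heart 72 to 1520 genes and 0 to 17 members. Among WT tissues, genes were 8959 to 9407 in BAT, 8973 to 9615 in heart, 10036 to 10363 in liver and 9644 to 10086 in muscle, and members 12 to 25 in BAT, 4 to 15 in heart, 12 to 16 in liver and 15 to 25 in muscle. The interaction counted 11 members without BAT WT library 3, 3 without liver WT library 4 and 1 without liver Mut library 3.

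Without BAT WT libraries 1 and 2 together, the median in BAT was 0.44, with Csf1 at -0.223 and Lyve1 at -0.415. Without liver Mut and WT libraries 4 together, 117 genes and 8 members were called in liver; both settings were chosen after seeing the data. In liver, median-ratio scaling turned the sign of Cd163 (-0.042), Lyve1 (-0.031) and Mrc1 (-0.109). Leaving out 1 liver library gave log2 fold changes of both signs, from -0.255 to 0.408 for Cd163, -0.145 to 0.331 for Lyve1 and -0.121 to 0.165 for Mrc1. How many reads lie behind the low members is unknown.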

Other observations

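In liver, 8 further genes listed for Kupffer cells (Spic, Nr1h3, Id1, Id3, Slc40a1, Hmox1, C6 and Clec1b) stood unlike the macrophage genes as a whole. All 8 were tested, 5 had log2 fold changes above 0, none was called by limma, and their median was 0.06. They summed to 199 to 365 TPM in Mut liver and 231 to 297 TPM in WT liver. In WT BAT, where Clec4f was only a trace, they summed to 192 to 250 TPM, so their sum is not particular to Kupffer cells. The sums were 81.2 to 104 TPM in WT heart and 52.8 to 60.1 TPM in WT muscle. The monocyte list (9 genes, 5 tested) had a median of 0.61 in liver, and its sums were 19.8 to 42.5 TPM in Mut liver, against 14.5 to 19.8 TPM in WT liver. Dendritic cell genes (7) summed to 3.84 to 5.08 TPM in Mut liver and 2.77 to 4.49 TPM in WT liver, and mast cell genes (6) to 1.11 to 2.34 TPM in Mut liver and 1.47 to 2.62 TPM in WT liver.

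In BAT, the monocyte list (4 of its genes tested) had a median of 0.60, with sums of 90.6 to 191 TPM in Mut BAT and 37.0 to 142 TPM in WT BAT. Dendritic cell genes summed to 6.65 to 8.82 TPM in Mut BAT and 5.21 to 8.13 TPM in WT BAT, and mast cell genes to 4.14 to 9.36 TPM in Mut BAT and 3.85 to 8.06 TPM in WT BAT. No gene of these lists was called in either tissue.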
